A study of Gallus gallus with 9 samples.

Results

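By the rule given below, 53 long non-coding RNAs (lncRNAs) were more abundant in adult chicken liver than in that of the embryo. They came from 2213 lncRNAs that passed a filter on low values, out of 4127 listed in all. No listed lncRNA has a value of 0 FPKM in any library, so lncRNAs undetected in some library may be missing from the list. The study sequenced RNA from chicken (Gallus gallus) liver at embryonic day 13 (labelled embryonic), at 5 weeks of age (labelled rapid growth) and at 42 weeks (labelled adult and aged), with 3 libraries per age. No treatment, genotype, breed, sex or batch is given for any library. The labels call the libraries biological replicates without naming the animals, so p-values measure the spread between these libraries, and age cannot be told apart from anything else that differed between the 3 sets. The 53 members were chosen by their measured values. The filter asked for at least 0.5 FPKM, a read-out scaled for transcript length and for the size of the library, in at least 3 of the 9 libraries. The mean log2(FPKM + 1) at 42 weeks then had to exceed that at embryonic day 13 by at least 1, and the 5-week mean could lie below the embryonic mean by less than 1. The second limit removed no lncRNA, since all 53 that met the first also met the second.

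Long non-coding RNAs are transcripts without a recognised protein product. Some act on the transcription of neighbouring genes, some hold proteins or other RNAs together, and for most no function is known. They are typically less abundant than mRNAs and more restricted to a tissue or stage. The embryonic liver of the chicken works on lipid taken up from the yolk, whereas after hatching the liver is the bird's main site of fatty acid synthesis, and in laying hens it also makes the yolk precursors of the egg. The members carry only the authors' transcript-unit identifiers (TU followed by a number), which the files pair with no name, position or sequence, so no sequence, locus or role is given here for any of them. For the same reason the liver marker genes were not checked in these libraries.

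The difference between embryo and adult used by the selection is described here without a test. Over the members it ranged from 1.01 to 4.71 on the log2(FPKM + 1) scale with a median of 1.30, against a median of -0.15 over all 2213 lncRNAs. The ratio of mean FPKM between 42 weeks and day 13 ranged from 2.51 to 166, and it was at least 10 for 27 members. Many members were close to the bottom of the scale in the embryo. Their mean FPKM at day 13 was under 0.1 for 12 and under 0.5 for 35 of the 53, and the highest, that of TU48647, was 2.76 ± 0.943 (SD, n = 3, as for every ± on FPKM below). At 42 weeks all 53 had a mean of at least 1 FPKM, 12 had at least 5 and 3 had at least 10. The median member stood at 0.245 FPKM in the embryo, 1.12 at 5 weeks and 2.58 in the adult, while the median of all tested lncRNAs was 0.701, 0.567 and 0.583 at the same ages. In bulk tissue, more RNA per cell and more cells of a type that carries the RNA cannot be told apart.

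Together the members made up 0.712% ± 0.112 of the summed lncRNA FPKM in the embryo, 5.44% ± 0.930 at 5 weeks and 9.14% ± 0.130 in the adult. A large part of this came from a single lncRNA, TU63378. Without it the shares were 0.670% ± 0.117, 3.66% ± 0.371 and 6.70% ± 0.281. A higher share in the adult than in the embryo follows from the rule, so nothing is read from that rise. The 42-week share differed little between libraries, although the summed FPKM of all listed lncRNAs ran from 2452 to 3327 among them.

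The filter bears on these levels. In 35 of the 53, at least 3 of the embryonic and 5-week libraries reached 0.5 FPKM, so these would have been kept without any adult library. The other 18 passed through the 42-week libraries, and 9 of these reached 0.5 FPKM in none of the 6 younger libraries. These 9 had to be higher in the adult to pass the filter at all, and for the rest of the 18 the filter favoured a higher adult level. Only 10 members reached 0.5 FPKM in all 9 libraries.

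When the members reached their adult level differed widely. The share of the 42-week minus day-13 difference that was already present at 5 weeks had a median of 47.7% (interquartile range 14.1 to 80.7%) and ran from -31.5% for TU12035 to 215% for TU64423. Sorted by this share, 7 members were below 0, 12 lay from 0 to 25%, 18 from 25 to 75%, 10 from 75 to 100%, and 6 at 100% or more. The boundaries of these bands are arbitrary.

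**Figure D1:**
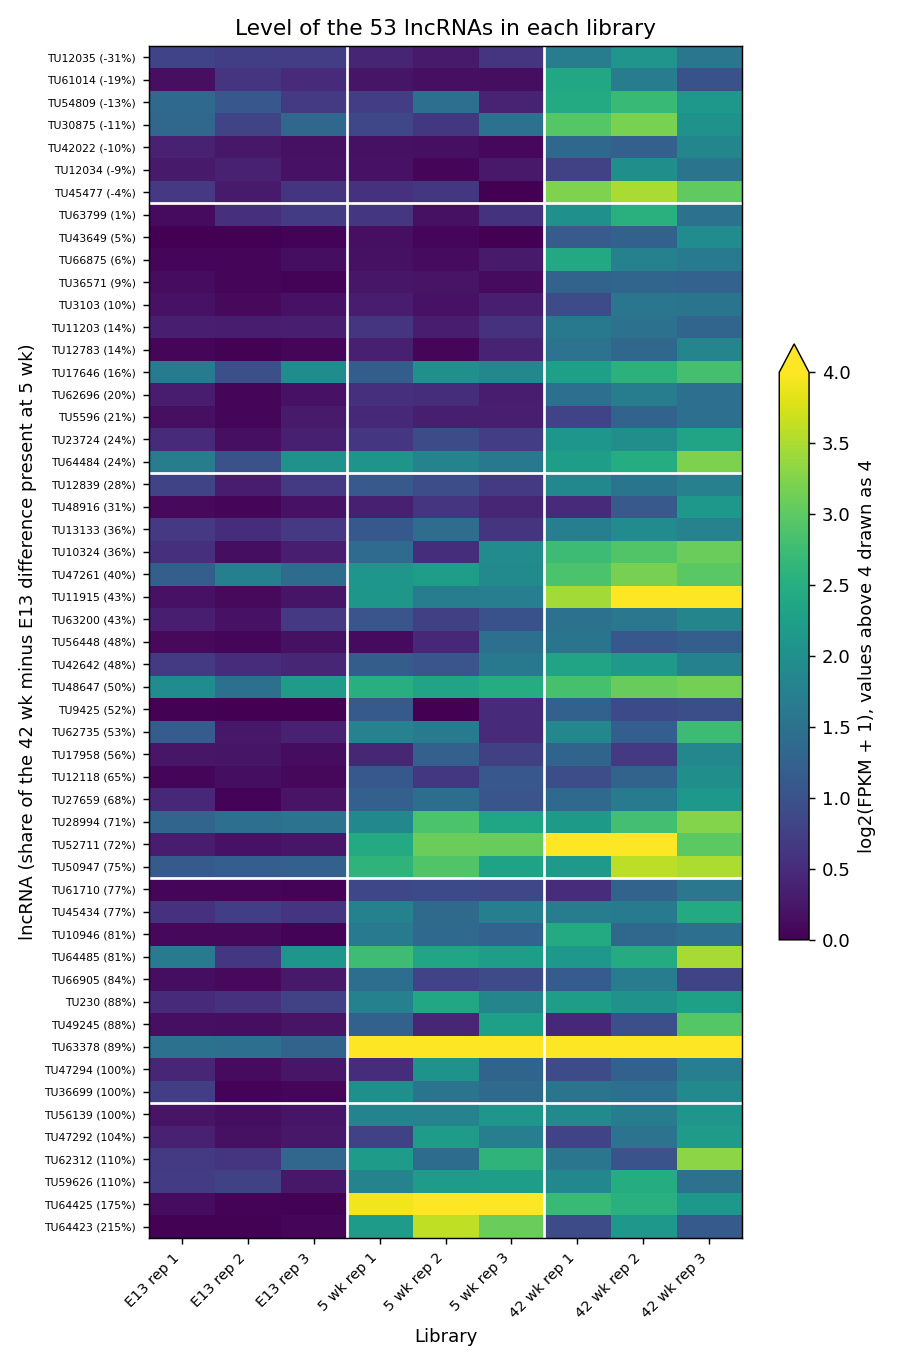
Level of each of the 53 lncRNAs (rows) in each of the 9 libraries (columns), as log2(FPKM + 1) by colour, with values above 4 drawn as 4. Rows are ordered by the share of the 42-week minus day-13 difference present at 5 weeks, given in brackets, and white lines part the ages and the bands below 0, 0 to 25, 25 to 75, 75 to 100 and 100% or more. The top rows are dark at both younger ages. Towards the bottom the rows are about as bright at 5 weeks as at 42 weeks, and the last ones, TU64425 and TU64423, are brighter at 5 weeks.

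Calls came from limma fitted to all 2213 lncRNAs, with Benjamini-Hochberg adjustment over the table. A call needed an adjusted p under 0.05 and a log2 difference of at least 1. For 42 weeks against day 13, 51 of the 53 members were called higher where 2.3% of all tested lncRNAs were. The rule used this contrast, so nothing is read from the count. The 2 members not called were TU49245 and TU62312. For 5 weeks against day 13, 14 members were called higher, with 1.81% of the table called higher. The rule used this contrast too: it barred a lower call and, by asking for a low embryonic mean, favoured higher ones, so the count is a description. By the adjusted p alone 23 members were higher, a count for which no share of the table is given. With an offset of 0.1 FPKM in the logarithm 24 members were called, among 179 lncRNAs called higher over the table of 2213. For 42 weeks against 5 weeks, 17 members were called higher (1.81% of the table) and 2 lower (1.72% of the table). Of the 17, 10 belong to the 18 members that passed the filter only through their 42-week libraries, which favours a higher level there. The other 7 were TU11915, TU45477, TU23724, TU30875, TU63799, TU54809 and TU12035, and both members called lower also passed on the younger libraries. The comparison between the 2 later ages is not one the rule used, but the rule asked for a high 42-week mean, which favours rises, so these counts are no support for a rise of the members as a whole. Each pair of comparisons shares the libraries of 1 age, the embryonic, the 5-week or the 42-week ones, so the 3 counts are not independent of each other. Scaling bears on the embryonic comparisons. Over the table, 123 lncRNAs were called lower at 42 weeks than at day 13 (70.7% of the calls), and once every library was brought to a common median 78 were called higher and 90 lower (53.6%). That shift moved the median difference of the table from -0.15 to -0.029, so the members' differences lie higher by that much when read against the table's median. After it 84 lncRNAs met the rule, all 53 members among them. The members could not drop under the limit, since the scaling raised every difference by the same amount.

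The separation of the libraries is given next. For the embryonic comparisons it follows largely from the rule, and nothing is read from it. All 3 adult libraries lay above all 3 embryonic libraries in 52 members, the exception being TU62312, whereas 15.4% of all tested lncRNAs were so separated. At 5 weeks all libraries lay above the embryonic ones in 32 members (15.7% of the table). The 42-week libraries lay wholly above the 5-week libraries in 27 members (14.9% of the table) and wholly below them in 2 (16.4% of the table), namely TU64425 and TU64423. Of the 27, 15 passed the filter on the younger libraries. On the means, 47 members were higher at 42 than at 5 weeks and 6 were lower, against 48.4% higher over the table.

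**Figure D2:**
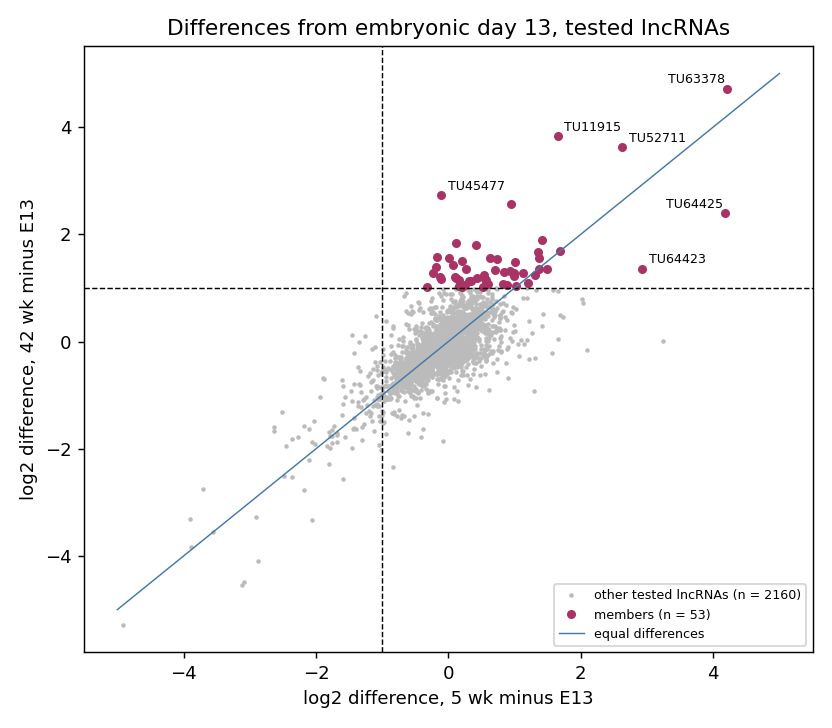
Log2 difference from embryonic day 13 at 5 weeks (x axis) and at 42 weeks (y axis) for the 53 members and the other tested lncRNAs. Dashed lines are the 2 limits of the rule and the blue line marks equal differences. Members far above the line (TU45477, TU11915) gained most after 5 weeks, and TU64425 and TU64423 lie far below it.

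TU63378 had the largest difference and the highest level. Its FPKM was 1.85, 1.74 and 1.41 in the embryonic libraries, 52.4, 31.2 and 68.8 at 5 weeks, and 64.4, 60.4 and 84.1 at 42 weeks. The embryonic libraries lay far below all others, and the 2 later ages overlapped. The log2 difference was 4.71 from day 13 to 42 weeks, of which 89.3% was present at 5 weeks. Between 5 and 42 weeks it was 0.50 ± 0.32 (SE, limma, adjusted p = 0.32).

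TU11915 was higher at each later age. It had 0.151, 0.0758 and 0.172 FPKM in the embryo, 3.32, 2.19 and 2.27 at 5 weeks and 9.90, 15.0 and 23.1 in the adult libraries. No libraries of different ages overlapped, and the ratio of mean FPKM between the end points was 121. The log2 difference between 5 and 42 weeks was 2.18 ± 0.27 (SE, limma, adjusted p = 0.0013), and 43.1% of the whole difference was present at 5 weeks. The choice of members favours rises in this interval, so this p-value is given as a description.

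TU52711 was the third in size, with 0.233, 0.141 and 0.181 FPKM at day 13 and 4.45, 7.49 and 7.44 at 5 weeks. The adult libraries had 16.8, 21.3 and 6.95. The third adult library thus lay among the 5-week libraries, while the other two lay above all of them. The later log2 difference was 1.01 ± 0.35 (SE, limma, adjusted p = 0.088), so it was not called. Without replicate 3 of the 42-week libraries, the lowest of them, it was 1.45 (limma, adjusted p = 0.0067) and was called. Without replicate 1 or replicate 2 of that age it was 0.86 and 0.70 (limma, adjusted p = 0.19 and 0.25), under the limit of 1. The choice of members favours rises in this interval, so nothing is read from the call made without replicate 3.

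TU45477 was the clearest case of a late rise. Its FPKM was 0.584, 0.220 and 0.529 at day 13, 0.485, 0.567 and 0.00671 at 5 weeks, and 8.40, 10.3 and 7.14 at 42 weeks. The 2 younger ages overlapped and every adult library lay far above both. The log2 difference between 5 and 42 weeks, 2.84 ± 0.21 (SE), was the largest among all 2213 tested lncRNAs.

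TU10324 had 0.452, 0.111 and 0.268 FPKM at day 13, 1.64, 0.434 and 2.80 at 5 weeks, and 5.72, 6.57 and 7.48 at 42 weeks. The second 5-week library lay among the embryonic ones, and the adult libraries stood above all others. The later log2 difference was 1.63 ± 0.30 (SE). It is given without a test, since only 2 of the younger libraries reached 0.5 FPKM. TU50947 was steady in the embryo, with 1.20, 1.30 and 1.33 FPKM, and had 5.06, 6.50 and 3.98 at 5 weeks. Its first adult library, at 3.44 FPKM, was below all 5-week libraries, while the other two had 11.1 and 10.4.

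**Figure D3:**
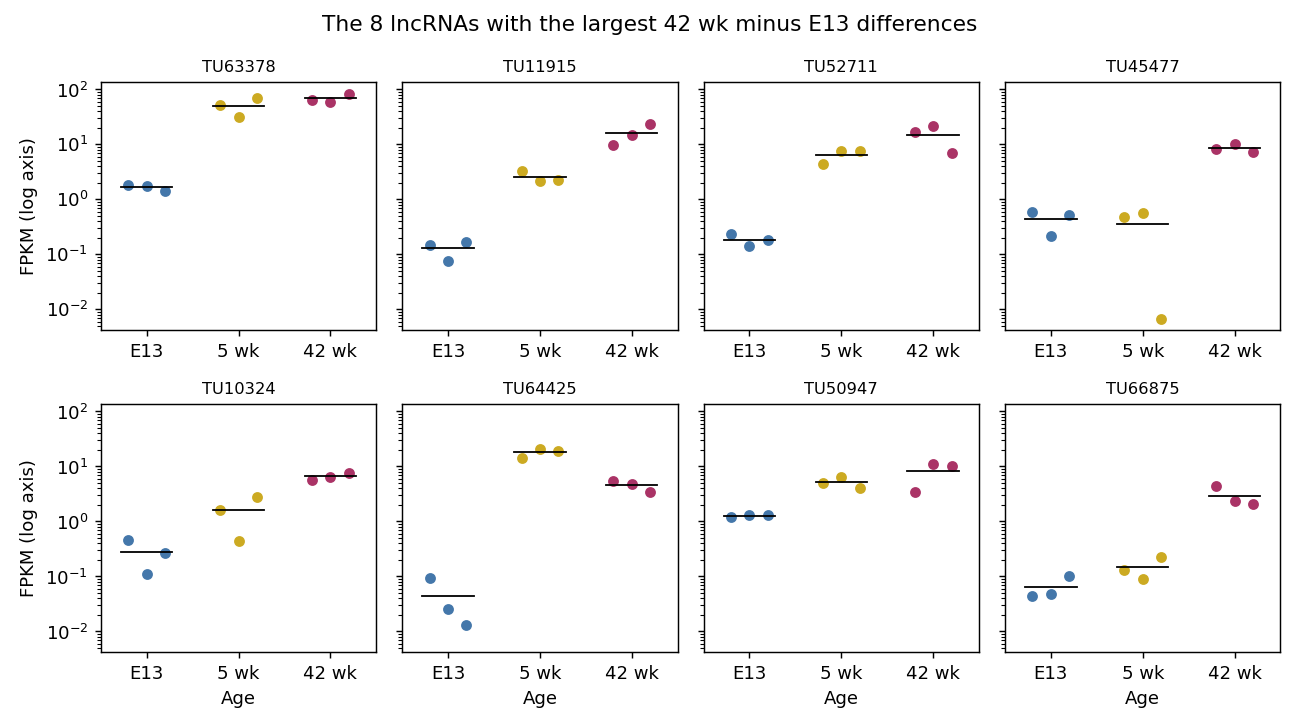
FPKM (log axis) of the 8 lncRNAs with the largest 42-week minus day-13 differences, by age. Points are the 3 libraries of an age in replicate order and the bars are their means. TU45477 and TU66875 are low at both younger ages, TU63378 is close to its adult level at 5 weeks, and TU64425 is highest at 5 weeks.

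In 7 members the 5-week mean was no higher than the embryonic one, so that the rule by itself fixed a difference of at least 1 between 42 and 5 weeks. Their later differences, from 1.26 to 2.84, are therefore a description. They were TU45477, TU30875, TU54809, TU61014, TU42022, TU12034 and TU12035. TU30875 had 1.51, 0.771 and 1.52 FPKM in the embryo, 0.801, 0.560 and 1.81 at 5 weeks and 6.73, 8.19 and 3.16 in the adult. Its younger ages overlapped and the adult libraries lay above them, for a later log2 difference of 1.74 ± 0.32 (SE). TU54809 was similar, with means of 1.10 ± 0.492 and 0.909 ± 0.741 FPKM at the younger ages and 4.46 ± 1.10 at 42 weeks. TU61014 had 4.26, 2.25 and 1.01 FPKM in the adult libraries against 0.172, 0.123 and 0.102 at 5 weeks. In TU12035 the 5-week libraries, at 0.337, 0.224 and 0.513 FPKM, all lay below the embryonic ones, at 0.744, 0.675 and 0.658, and the adult libraries reached 2.23, 3.26 and 1.96. Its 5-week mean was the furthest below the embryonic one of any member, by a log2 difference of -0.32.

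A further 12 members had up to 25% of the difference at 5 weeks. The adult libraries lay above all 5-week libraries in each of the 12, with log2 differences of 0.80 to 1.74. A small share at 5 weeks goes with a large later difference by construction, so the order of the bands is a description as well. TU66875 had 0.0437, 0.0483 and 0.103 FPKM in the embryo, 0.133, 0.0881 and 0.226 at 5 weeks and 4.36, 2.37 and 2.10 in the adult; its later log2 difference of 1.74 ± 0.19 (SE) is not tested, since none of its younger libraries reached 0.5 FPKM. TU23724 went from a mean of 0.266 ± 0.146 FPKM over 0.697 ± 0.176 to 3.43 ± 0.566 (later log2 difference 1.38 ± 0.16 SE, limma adjusted p = 0.0011). The rule and the band both favour a later rise, so nothing is read from that p-value. TU36571 had the smallest spread of the members between adult libraries, with 1.42, 1.48 and 1.40 FPKM at 42 weeks against 0.177, 0.159 and 0.0844 at 5 weeks. TU43649 had the highest ratio of mean FPKM between adult and embryo, 166, but from an embryonic mean of 0.0110 ± 0.0102 FPKM, and its adult mean was 1.82 ± 0.912. The remaining members with up to 25% were TU63799, TU12783, TU62696, TU3103, TU11203, TU64484, TU17646 and TU5596.

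The largest band, with 25 to 75% of the difference at 5 weeks, held 18 members, among them TU11915, TU52711, TU10324 and TU50947. Of these 18, 4 were called higher at 5 weeks than at day 13 and 2 (TU11915 and TU10324) higher at 42 than at 5 weeks. Most of this band was not called in the later interval, which follows in part from the band. Its members had at most 75% of their difference in either interval. Where the whole difference was 1.33 or less, as in TU62735 and TU28994, the limit of 1 barred a call in either interval. TU10324 was listed only through its 42-week libraries, so nothing is read from its call. The adult libraries lay above all 5-week libraries in 8 of the 18. TU47261 just missed the size limit, with means of 1.77 ± 0.504, 3.25 ± 0.507 and 7.08 ± 0.871 FPKM at the 3 ages and a later log2 difference of 0.93 ± 0.21 (SE, limma, adjusted p = 0.018). TU48647, the highest member in the embryo, had 2.76 ± 0.943, 4.46 ± 0.373 and 7.15 ± 0.934 FPKM. TU28994 had 1.69 ± 0.199, 4.34 ± 1.84 and 6.03 ± 2.52 FPKM and was called in neither interval. The other 11 members of the band were lower, with adult means from 1.06 FPKM in TU9425 to 3.31 in TU42642. TU27659, with 0.191 ± 0.176, 1.38 ± 0.315 and 2.38 ± 0.931 FPKM, was called higher at 5 weeks than at day 13, a call lost without the second 5-week library or without the second embryonic one or the third. TU62735, TU12118, TU63200, TU13133, TU56448, TU48916, TU12839 and TU17958 were called in neither interval. Their whole differences, from 1.08 to 1.33, barred a call in either, so nothing is read from this. In TU63200, TU13133 and TU12839 the later difference missed only the size limit, which it could not reach (limma, adjusted p = 0.021, 0.031 and 0.017). TU42642, with a whole difference of 1.54, also missed only the size limit (limma, adjusted p = 0.029). Rises in this interval are favoured by the choice of members. TU9425 had the lowest embryonic level of all members, at 0.0130, 0.00576 and 0.00398 FPKM. Its 5-week libraries were far apart, at 1.19, 0.00779 and 0.393 FPKM, and the adult ones had 1.37, 0.864 and 0.942.

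The 16 members with at least 75% of the difference at 5 weeks were, by that choice, well above the embryo at 5 weeks, and all their 5-week libraries lay above all embryonic ones. TU56139 showed almost the same level at both later ages, with 2.48, 2.46 and 3.23 FPKM at 5 weeks and 2.72, 2.22 and 3.22 at 42 weeks, after 0.157, 0.109 and 0.176 in the embryo. The later log2 difference had an SE of 0.16, so changes of that order were within the error. TU230 had means of 0.536 ± 0.155, 3.04 ± 1.03 and 3.53 ± 0.381 FPKM at the 3 ages. TU10946 went from 0.0506 ± 0.0178 to 1.71 ± 0.396 FPKM at 5 weeks, and had 4.46, 1.53 and 1.75 in the adult libraries, of which the first stood apart. TU36699 stood at 0.245 ± 0.364, 2.17 ± 0.731 and 2.15 ± 0.542 FPKM, again with like means at the 2 later ages. TU59626 had 0.519 ± 0.281, 3.27 ± 0.693 and 3.01 ± 1.42 FPKM, with overlapping libraries at the 2 later ages. TU61710 had 0.0403 ± 0.0128, 0.835 ± 0.0316 and 1.28 ± 0.800 FPKM and was called in neither interval. The same held for TU45434, TU66905, TU64485, TU49245 and TU62312. With at least 75% of their difference present at 5 weeks, a call of a later rise was out of reach for all of these. TU61710, TU45434, TU66905 and TU64485 had early log2 differences of 0.82, 0.99, 0.89 and 0.99, so the limit of 1 barred an early call. TU49245 and TU62312, at 1.13 and 1.21, met that limit but not the one on the adjusted p.

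A maximum at 5 weeks with a called fall afterwards was found in 2 members, while 1.72% of the table was called lower in this interval. The 2 carry neighbouring identifiers, as described below. TU64425 had 0.0934, 0.0258 and 0.0134 FPKM in the embryo, 14.2, 21.2 and 19.2 at 5 weeks and 5.46, 4.80 and 3.37 in the adult. No libraries of different ages overlapped. The log2 difference between 5 and 42 weeks was -1.79 ± 0.23 (SE, limma, adjusted p = 0.0013), so this lncRNA was lower at 42 than at 5 weeks. That its adult level was above its embryonic one follows from the rule. TU64423 had 0.0174, 0.0117 and 0.0476 FPKM, then 3.61, 11.2 and 7.49, then 0.886, 3.40 and 1.20. Its later log2 difference was -1.57 ± 0.37 (SE, limma, adjusted p = 0.020). The call was lost in 5 of the alternatives, with adjusted p-values of 0.051 to 0.063 (limma). Among these 5 was the fit of the compared ages alone. The SE pools a log2 SD of 0.027 in the embryo with 0.71 and 0.65 at 5 and 42 weeks, so it understates the spread of the compared ages. Falls between these ages go against the direction favoured by the choice of members, but nothing is read from a count of 2.

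Among the members, 4 pairs carry neighbouring identifiers, which came to notice only after the values had been seen. The pairs were TU12034 with TU12035, TU47292 with TU47294, TU64423 with TU64425 and TU64484 with TU64485. What the numbering follows is not given in the sources used here, so whether such units overlap, are parts of 1 transcript or share reads was not tested. To compare them apart from the age means that the rule used, each library's log2 value was taken as its deviation from the mean of its age. Across the 9 libraries these deviations had a Pearson's r of 0.999 for TU64484 and TU64485, 0.947 for TU47292 and TU47294, 0.618 for TU12034 and TU12035 and 0.545 for TU64423 and TU64425. The median over all 1378 pairs of members was 0.0687, and over the 459 pairs of tested lncRNAs with identifiers at most 2 apart it was 0.384. The points of a pair share their libraries, and these values are given as a description.

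The pair TU64484 and TU64485 shows what lies behind the highest value. TU64484 had 2.25, 0.985 and 3.13 FPKM in the embryo, 3.19, 2.47 and 2.08 at 5 weeks and 3.66, 4.58 and 8.25 in the adult. TU64485 had 2.09, 0.576 and 3.28, then 5.74, 4.18 and 3.69, then 3.38, 4.51 and 10.1. Libraries ranked in the same order within every age in both, while the 5-week levels of TU64485 were higher. TU47292 and TU47294 likewise ranked their libraries in the same order within every age, with 0.724, 3.63 and 2.28 FPKM against 0.443, 3.12 and 1.45 at 5 weeks. Such a pair counts as 2 members in every count given here.

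**Figure D4:**
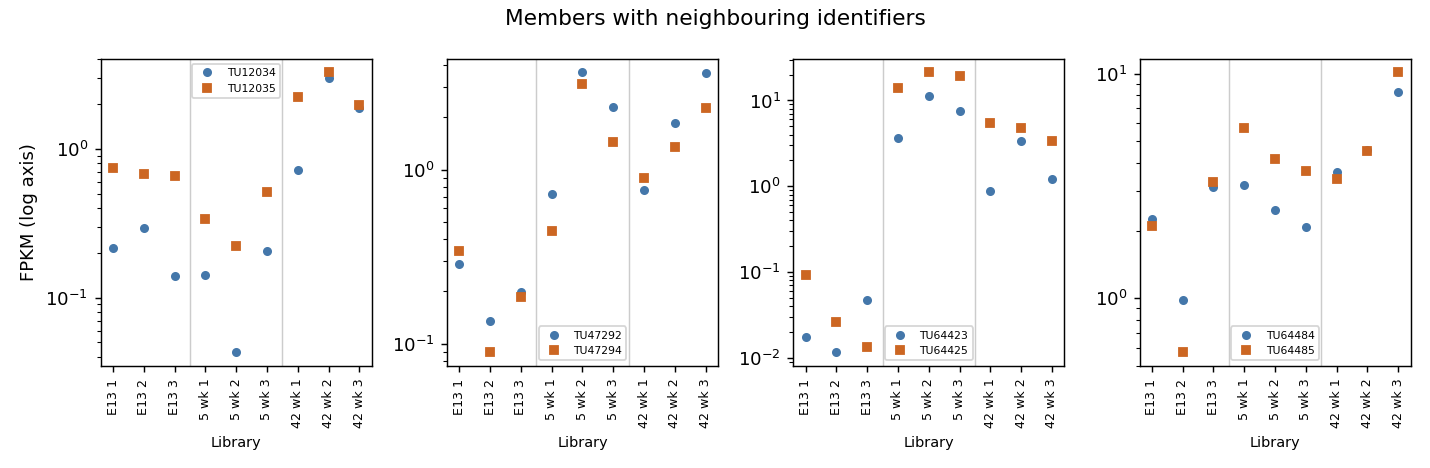
FPKM (log axis) in each of the 9 libraries for the 4 pairs of members with neighbouring identifiers. Circles and squares are the 2 lncRNAs of a pair and grey lines part the ages. In the pair TU64484 and TU64485 the symbols move together between libraries of the same age.

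Spread within an age limits how firmly single members are placed. The median SD of a member on the log2 scale was 0.10 in the embryo, 0.25 at 5 weeks and 0.39 in the adult, and over all tested lncRNAs it was 0.14, 0.17 and 0.19. With the offset of 1 the SD shrinks near 0 FPKM, where many members lay in the embryo. The members' SDs therefore partly follow the levels set by the rule, and no steadier embryonic level is read from them. The SEs pool all 3 ages. In members near 0 FPKM in the embryo they, and their p-values, can thus be too small for the later interval. The third 42-week library had the highest median log2 value of the adult libraries over all tested lncRNAs, 0.75 against 0.57 and 0.62. It was the highest adult library for 28 of the 53 members (52.8%), and for 59.0% of all tested lncRNAs. The widest ranges among adult libraries were found in TU49245, with 0.374, 0.965 and 6.72 FPKM, in TU62312, with 1.98, 1.03 and 8.92, and in TU48916, with 0.397, 1.17 and 3.40. In all 3 the third library was the highest.

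Leaving out a library showed which memberships rest on it. When the whole rule, filter included, was applied again without each library in turn, 26 of the 53 were found every time and 27 were lost at least once. The number lost was 20 without the third 42-week library, 14 without the second, 11 without the first, 8 without the second embryonic library and 1 without the second 5-week library. Part of this comes from the filter, which still asked for 3 libraries. With the filter kept as it was, 33 of the 53 members stayed at or above a log2 difference of 1 whichever single library was left out, and 20 dropped below it at least once. The number that dropped below was 12 without the third 42-week library, 8 without the second embryonic library, 6 without the second 42-week library and 2 without the first. It was 0 without the first or the third embryonic library. The 5-week libraries do not enter this difference, so leaving them out could not change it. The second embryonic library was the lowest of its age for 31 members (58.5%), and for 44.6% of all tested lncRNAs. The lowest values were 0.43 for TU62312 and 0.54 for TU49245, both without the third 42-week library. Among the lowest members were TU5596 at 1.01, TU9425 at 1.02 and TU12035 at 1.02, and just outside lay TU56129 at 0.99, TU34157 at 0.99 and TU11922 at 0.99. No gap separated the members from the rest at this limit.

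**Figure D5:**
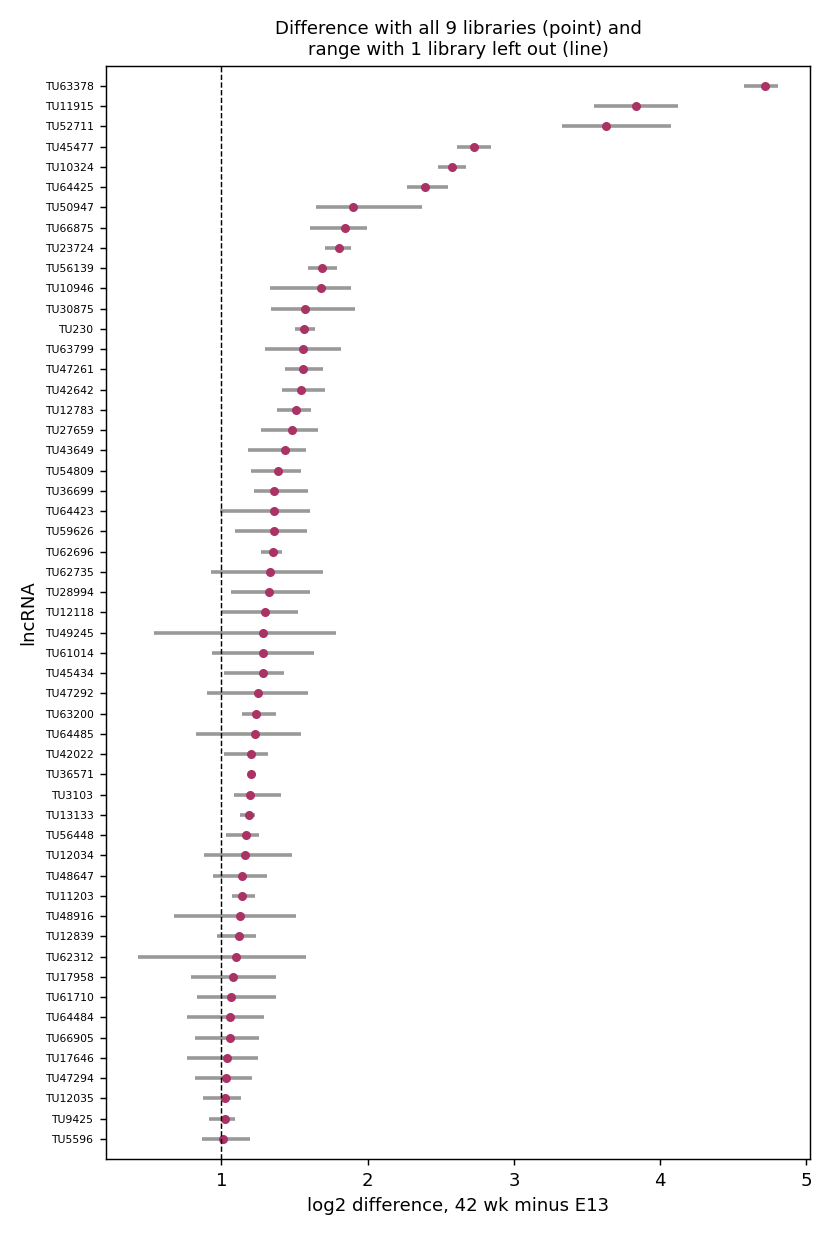
Log2 difference between 42 weeks and embryonic day 13 for each member, with all 9 libraries (point) and as the range obtained when each library is left out in turn (line). The dashed line is the limit of 1 used by the rule. Lines that cross it belong to 20 members, with the widest crossings for TU49245 and TU62312.

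The mRNA table allowed a search for transcripts with a similar course. For each of the 5 members with the largest difference, the 2 mRNAs with the highest Pearson's r of log2 values over the 9 libraries were taken from 11512 mRNAs that reached 1 FPKM in no fewer than 3 libraries. Such values are the highest of many and reflect mostly the 3 ages, so they are given as a description. The deviations from the age means come from the same libraries, so the choice favours a high r for them too. No background is given for these. The files give no names for the mRNAs either. ENSGALG00000012131 was the most similar to TU63378 (r = 0.998), with 4.66 ± 1.14 FPKM in the embryo, 163 ± 52.4 at 5 weeks and 208 ± 13.9 in the adult. The deviations from the age means had an r of 0.906. Its 5-week libraries had 181, 103 and 203 FPKM, low in the second as in TU63378. ENSGALG00000040059 followed (r = 0.992, and 0.732 for the deviations).

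For TU52711 the most similar mRNAs were ENSGALG00000012748 (r = 0.996) and ENSGALG00000010139 (r = 0.994). The deviations from the age means, whose r the choice also favours, had an r of 0.960 and 0.933. ENSGALG00000012748 had 325, 412 and 95.1 FPKM in the adult libraries, so that the third was low in the mRNA as in the lncRNA. ENSGALG00000010139 showed the same, with 34.8, 28.4 and 11.5 FPKM. TU11915 was most like ENSGALG00000029094 and ENSGALG00000002165 (both r = 0.991, and 0.840 and 0.699 for the deviations). The former lay at a far higher level, with 363 ± 40.9, 703 ± 69.2 and 1375 ± 239 FPKM at the 3 ages. TU45477 was most like ENSGALG00000014321 (r = 0.991), which had 32.9 ± 2.47 FPKM in the embryo, 31.0 ± 1.32 at 5 weeks and 53.5 ± 1.90 in the adult, and ENSGALG00000006647 (r = 0.990), which had 0.271 ± 0.151, 0.263 ± 0.0708 and 4.45 ± 0.477. Their deviations had an r of 0.761 and 0.559. For TU10324 they were ENSGALG00000008855 (r = 0.974) and ENSGALG00000023925 (r = 0.969), with 0.838 and 0.947 for the deviations, the latter listed at 0 FPKM in the second 5-week library, where TU10324 was lowest among the 5-week libraries.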

How the data were processed

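RNA was measured in 9 liver libraries, 3 per age. TRIzol served for extraction of total RNA and a TruSeq RNA kit for the libraries, per the labels' protocols. The submitters' processing notes name HISAT, StringTie 1.3.3, Cufflinks 2.2.1 and DESeq2 without roles. Neither the build nor the annotation is given in the sources used here. Log2 values of FPKM for 4127 lncRNAs and 13949 mRNAs were deposited by the authors. An offset of 1 before the logarithm fits the mRNA values, whose smallest FPKM above 0 is then 0.100, and was assumed for lncRNAs. The lncRNA values go down to 9.98e-07 FPKM, so they hold no step of 1 read. None of them is 0, whereas 5041 mRNA values are. Whether lncRNAs undetected in some library were left out before deposition is not given in the sources used here. Depth is unknown, and low values cannot be given a counting error.

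Members were found from the deposited values by the rule given above. The table of 2213 filtered lncRNAs was fitted with limma 3.58.1 in R 4.3.3 (1 mean per age, all 9 libraries, mean-variance trend, two-sided, Benjamini-Hochberg over the table). The fit was also run on simulated data that gave each lncRNA the same spread at every age. The members' spread differed between ages, so nothing is read from that run. SEs pool the spread of all ages. Differences on the log2(FPKM + 1) scale understate changes of low lncRNAs. Members, lists and tests were chosen with earlier results of these data known. Members were named by rank (largest differences in each contrast, highest level, nearest to the limit, widest adult range), and others as examples of a band or pair after their values were seen. Of the identifiers, 0 matched the reference gene table, so the gene and marker lists, and the mRNA fit meant for them, were not analysed here.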

Additional observations from a re-analysis of the deposited data

How the results depend on the processing

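The number of lncRNAs meeting the rule was 53 as deposited, 84 after median scaling, 92 after quantile normalization and 275 with an offset of 0.1 FPKM, each including all 53, and 52 to 65 with 1 library left out, of which 33 to 53 were members. Median scaling raised every 42-week minus day-13 difference by the same amount, and a smaller offset widens rises from low values. That all 53 were kept under these 2 settings is therefore no sign of a stable membership. Scaling moved the median 42-week minus day-13 difference of the table from -0.15 to -0.029 (median) and -0.014 (quantile), and its calls from 51 higher and 123 lower to 78 and 90, and 83 and 76. Members called higher at 5 weeks than at day 13 numbered 24 with the offset of 0.1 FPKM, where 179 lncRNAs were called over the table. By the adjusted p alone 23 members were higher, again with no share of the table given, so nothing is read from that count. With 1 library left out 11 to 16 members were called, and 33 to 41 lncRNAs over the table. The call of a fall from 5 to 42 weeks held for 1 member, TU64425, when the compared ages were fitted alone, and for 1 to 2 with 1 library left out. Over all tested lncRNAs such falls numbered 28 with the compared ages alone and 26 to 48 with 1 library left out. Members called higher at 42 weeks numbered 41 to 51 against day 13 and 14 to 19 against 5 weeks with 1 library left out. Over all tested lncRNAs these calls numbered 44 to 71 and 32 to 50. The rule used the contrast with day 13 and favours rises after 5 weeks, so these counts are a description. The median share present at 5 weeks was 54.5% with the offset of 0.1 FPKM and 39.5 to 50.7% with 1 library left out, the lowest without the first 5-week library. The cause of these shifts was not tested. The counts of members called kept within 1.5 times under the other alternatives (no filter, a filter of 1 FPKM, no variance trend), and no call changed sign. Over their tables of 4127, 794 and 2213 lncRNAs, calls of 42 weeks over day 13 numbered 54, 45 and 51. Those of 5 weeks over day 13 numbered 41, 37 and 39. Those of 42 over 5 weeks numbered 39, 37 and 39, and those under it 34, 37 and 38. With the replicate number as a block, 53, 15, 17 and 2 members were called (42 weeks over day 13, 5 weeks over day 13, 42 over 5 weeks, and under it). Over all tested lncRNAs the block gave 53, 42, 41 and 40 such calls. The rule used both contrasts with day 13, so nothing is read from the members' counts for them. Deviations of same-numbered libraries correlated at -0.028 to 0.105 across lncRNAs, so the numbers were not taken to pair libraries. Yet every embryonic and every 5-week library correlated best with the 42-week library of its own number. Between day 13 and 5 weeks this held only for the third embryonic library. Whether the numbers mark something shared was not tested. The same settings were not run for calls among mRNAs, as no mRNA call is reported.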
